A study of Arabidopsis thaliana with 12 samples.

Results

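Loss of APETALA2 (AP2) was studied by setting 4 libraries of plants that carry the allele ap2-12 against 4 libraries of wild type (WT, accession Col-0). These are 8 of the 12 libraries of the study. The other 4, of the rAP2-VENUS #A6 line, entered the statistical fit as well: they share its estimate of spread, its scaling and its low-count filter, so they also bear on which genes were tested (18807, or 18516 with the 8 libraries alone). RNA came from shoot apices of Arabidopsis thaliana, the tip of the flowering stem with its youngest flower buds, cut when the stem was 1 cm tall in plants given 16 h of light and 8 h of dark. The labels name no treatment, no transgene in ap2-12 or WT, no plant age beyond the stem height and no hour of harvest. They mention 15 apices and 4 independent biological replicates, without saying whether each library was made from that many apices. Every ap2-12 library carries the same allele, and the labels do not give its lesion. The groups were taken from the labels, not from measured values.

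AP2 is a transcription factor of the AP2/ERF class. In flowers it specifies sepals and petals and holds back the stamen and carpel gene AGAMOUS. In the shoot apex it delays flowering and helps maintain the stem cells. Because apices bear flower buds, stem tissue and small leaves, the RNA of a library mixes meristem, epidermis, young vessels, anthers and carpels. In such bulk samples fewer cells of a type and less RNA per cell cannot be told apart, and this holds for every organ and tissue list below.

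The values are read counts per gene, given as CPM, which scales each library's total to a common size. Library totals ran from 9680133 to 15152704 counts. Genes were called at an adjusted p under 0.05 in edgeR's quasi-likelihood test, and a fold change is ap2-12 over WT. Values per library stand in the order of replicates 1 to 4. Means are given ± SD with n = 4 libraries in each group, and SE is the standard error of a log2 fold change. Defining genes of the shoot apex were present. Of these, AP1 was called lower (log2 fold change -1.13, SE 0.07, adjusted p = 6e-07), and so was LFY (log2 fold change -0.60, SE 0.12, adjusted p = 0.00389). STM, which keeps meristem cells undifferentiated, was at 29.2 ± 3.40 CPM in ap2-12 and 66.2 ± 12.3 CPM in WT (log2 fold change -1.18, SE 0.15, adjusted p = 0.000206). WUS, which maintains stem cells, was at 6.02 ± 0.891 CPM in ap2-12 and 6.67 ± 1.28 CPM in WT and was not called (log2 fold change -0.14, SE 0.17, adjusted p = 0.629), nor was KNAT1, another meristem gene of the same class as STM, at 54.1 ± 5.47 CPM in ap2-12 and 77.9 ± 25.7 CPM in WT (log2 fold change -0.52, SE 0.22, adjusted p = 0.147).

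AP2 itself was measured at 20.6, 15.6, 17.3 and 15.5 CPM in ap2-12, against 92.8, 50.3, 42.3 and 44.4 CPM in WT. AP2 fell (log2 fold change -1.73, SE 0.23, adjusted p = 0.000302), and the ranges of the genotypes did not overlap. WT replicate 1 was higher than the other WT libraries, and without it the log2 fold change was -1.41. A count per gene says nothing of the function of the transcripts that remained.

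Across the genome more genes fell than rose. Of 18807 genes that passed the low-count filter, 2866 were called in ap2-12 against WT, which is 15.2%. They were 1063 genes that rose (5.65%) and 1803 that fell (9.59%). Of these, 1010 changed at least 2-fold, 425 of them upward and 585 downward. At least 4-fold changes were 135 upward and 156 downward. The genes called higher numbered 708 without ap2-12 replicate 2, 687 without ap2-12 replicate 3 and 705 without WT replicate 2. The median log2 fold change of all genes tested was 0.0015. The genes that fell held 9.07 ± 0.160% of counted reads in ap2-12 and 13.9 ± 0.361% in WT. The genes that rose held 4.73 ± 0.219% in ap2-12 and 3.00 ± 0.0437% in WT. Because these genes were chosen by this comparison, the shares only describe how much RNA they represent.

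**Figure D1:**
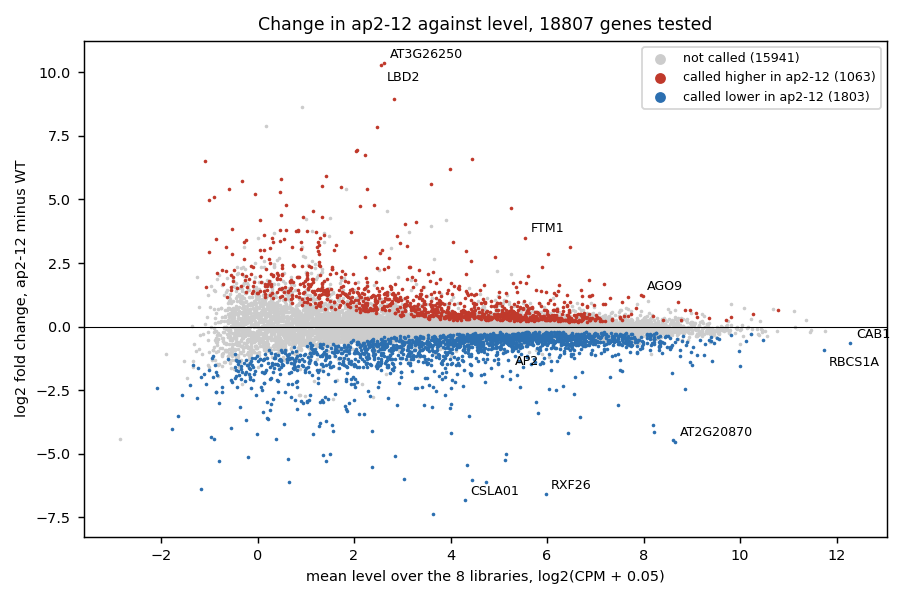
Log2 fold change of each of 18807 genes (vertical, ap2-12 minus WT) against its mean level over the 8 libraries (horizontal, log2 of CPM + 0.05). Red points are the 1063 genes called higher in ap2-12, blue points the 1803 called lower and grey points those not called. The fitted values of AT3G26250 and LBD2, which had no count in WT, are not bounds.

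Among the large changes were genes that were at or near 0 in 1 genotype. AT3G26250, which encodes a cysteine/histidine-rich protein, was at 9.63, 12.3, 14.9 and 12.2 CPM in ap2-12, against 0, 0, 0 and 0 CPM in WT. LBD2, a LOB-domain transcription factor gene, was at 1.38, 16.1, 7.67 and 21.6 CPM in ap2-12, against 0, 0, 0 and 0 CPM in WT. Both had no count in any WT library, so their levels were at least 213-fold and at least 203-fold higher in ap2-12, taking 3 counts over the WT group as the limit. AT5G60140, of the B3 family of transcription factors, rose 43.1-fold (9.38 ± 3.48 CPM in ap2-12 and 0.195 ± 0.150 CPM in WT, log2 fold change 5.43, SE 0.52, adjusted p = 2.16e-05). ORP4C, an oxysterol-binding protein gene, rose 26.6-fold and SCPL43, a carboxypeptidase-like gene, 16.6-fold. ABCG39, which encodes a membrane transporter of the pleiotropic drug resistance class, rose 13.1-fold (7.01 ± 1.95 CPM in ap2-12 and 0.544 ± 0.197 CPM in WT). FTM1, a plastid stearoyl-ACP desaturase gene known from meristems at the floral transition, was at 151, 94.0, 60.7 and 36.4 CPM in ap2-12, against 14.2, 12.6, 1.90 and 2.42 CPM in WT (log2 fold change 3.49, SE 0.63, adjusted p = 0.00256). All 4 ap2-12 libraries lay above all 4 WT libraries, which was a condition for naming a gene among the largest changes. Levels of FTM1 in both genotypes were lower in replicates 3 and 4.

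Other large increases varied strongly between ap2-12 libraries. AT3G23770, a glycosyl hydrolase gene, was at 7.26, 53.5, 29.5 and 81.3 CPM in ap2-12, against 0, 0.0674, 0 and 1.56 CPM in WT. Its log2 fold change of 6.59 became 10.3 without WT replicate 4, and it was not called with limma-voom (adjusted p = 0.0943). The alpha carbonic anhydrase gene ACA5 (AT1G08065) was at 0.993, 7.64, 3.04 and 9.12 CPM in ap2-12, against 0.104, 0, 0.219 and 0 CPM in WT (5.92 on the log2 scale, 7.21 without WT replicate 3). AT1G20130, a GDSL lipase gene, had 477 counts over the ap2-12 libraries and 3 over the WT libraries, a ratio of 145 (95% interval 49.2 to 704, counting error only). Its log2 fold change of 6.92 (adjusted p = 0.032) was 5.38 without ap2-12 replicate 4, and it was not called in 5 of the 8 fits that left out 1 library (highest adjusted p = 0.0967).

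The large decreases included genes of the outer cell layer and the wall. RXF26, a GDSL lipase gene of the cutin list, was at 2.06, 1.07, 1.24 and 0.810 CPM in ap2-12, against 147, 155, 78.3 and 117 CPM in WT (log2 fold change -6.59, SE 0.30, adjusted p = 5.16e-08). CSLA01, a cellulose-synthase-like gene of the mannan synthase family, was at 0.458, 0.402, 0.207 and 0.270 CPM in ap2-12, against 55.3, 58.1, 19.7 and 22.3 CPM in WT (log2 fold change -6.83, SE 0.59, adjusted p = 8.87e-06). AT5G23970, an acyltransferase gene, was at 0, 0, 0 and 0.540 CPM in ap2-12, against 29.5, 31.9, 17.0 and 20.8 CPM in WT (log2 fold change -7.38). Without ap2-12 replicate 4, the only ap2-12 library with a count, the fitted value was -11.4. With no count left in ap2-12, that value is not an estimate of the size of the change. Genes named as the largest changes had to be separate between the groups, so the gap between WT and ap2-12 libraries here follows from that choice. CYP86A7 fell 69.0-fold, AT5G52390 (a PAR1 protein gene) 65.3-fold and CA2, a beta carbonic anhydrase gene, 63.7-fold. AT4G28160 (a hydroxyproline-rich glycoprotein gene) fell 45.6-fold, AT4G24140 (an alpha/beta-hydrolase gene) 44.0-fold and AT5G55720 (a pectin lyase-like gene) 38.6-fold. AT5G62730, a major facilitator gene at 0.122 ± 0.116 CPM in ap2-12 and 5.16 ± 1.89 CPM in WT, fell by 5.29 on the log2 scale, or by 5.99 without ap2-12 replicate 2.

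The genes called with large differences in CPM included plastid and wall genes. RBCS1A, a small subunit of Rubisco, was at 1971, 2299.6, 2542 and 2529.6 CPM in ap2-12, against 3974, 4076, 5203 and 4541 CPM in WT (log2 fold change -0.93, SE 0.11, adjusted p = 0.000124). AT2G20870, a cell wall protein precursor gene, was at 27.1, 39.7, 31.6 and 34.0 CPM in ap2-12, against 847, 874, 614 and 729 CPM in WT (log2 fold change -4.53, SE 0.15, adjusted p = 2.26e-09). AT5G33370, another GDSL lipase gene, was at 33.8 ± 7.43 CPM in ap2-12 and 751 ± 187 CPM in WT (log2 fold change -4.47, SE 0.23, adjusted p = 1.63e-07). LOX2, which starts jasmonate synthesis in the plastid, was at 155, 177, 136 and 102 CPM in ap2-12, against 827, 978, 569 and 740.2 CPM in WT (log2 fold change -2.45, SE 0.22, adjusted p = 1.27e-05). None of these 4 genes overlapped between the groups, which held for 18.6% of all genes tested, and they were picked as called genes with large differences in CPM. Of the genes called higher, the largest difference in CPM was in BGLU18, a beta-glucosidase that releases abscisic acid from its glucose ester, at 2146 ± 135 CPM in ap2-12 and 1368 ± 204 CPM in WT (log2 fold change 0.65, SE 0.14, adjusted p = 0.00654). FLR1, a leucine-rich repeat protein gene, was at 1454 ± 81.2 CPM in ap2-12 and 1023 ± 146 CPM in WT (1.42-fold higher), and PCK1, the phosphoenolpyruvate carboxykinase of gluconeogenesis, at 556 ± 24.8 CPM in ap2-12 and 286 ± 53.3 CPM in WT (1.95-fold higher). AGO9, an Argonaute gene of small RNA silencing, was at 317, 342, 359.7 and 369 CPM in ap2-12, against 147, 152, 151 and 140.1 CPM in WT (log2 fold change 1.24, SE 0.07, adjusted p = 3.91e-07). Smaller rises were in the wall linker gene CWLP (1.57-fold), AT1G62500 of the lipid transfer superfamily (1.56-fold) and the myrosinase-binding gene MBP2 (1.30-fold, not called without ap2-12 replicate 2, adjusted p = 0.0528). MEE48, a glycosyl hydrolase gene, rose 2.31-fold but overlapped between the groups and was not called in 4 of the 8 fits without 1 library (highest adjusted p = 0.0784).

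To describe programmes, 65 lists of named genes were used, from organ markers to hormone pathways. Genes in any list made up 1898 of the genes tested, of which 421 fell (22.2%) and 142 rose (7.48%). Among the 16909 genes in no list, 1382 fell (8.17%) and 921 rose (5.45%). Over all genes tested 9.59% fell and 5.65% rose, and each list count below is to be read beside these shares. The lists were chosen with results of these data known, so their counts describe the members and do not test the programmes. In 16 lists no gene rose by edgeR's test, and in these 0 to 3 members were higher at an unadjusted p under 0.05, with at most 1 called higher by DESeq2 or limma-voom. In 6 lists no gene fell, with 0 or 1 member lower at an unadjusted p under 0.05 and none called lower by DESeq2 or limma-voom.

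**Figure D2:**
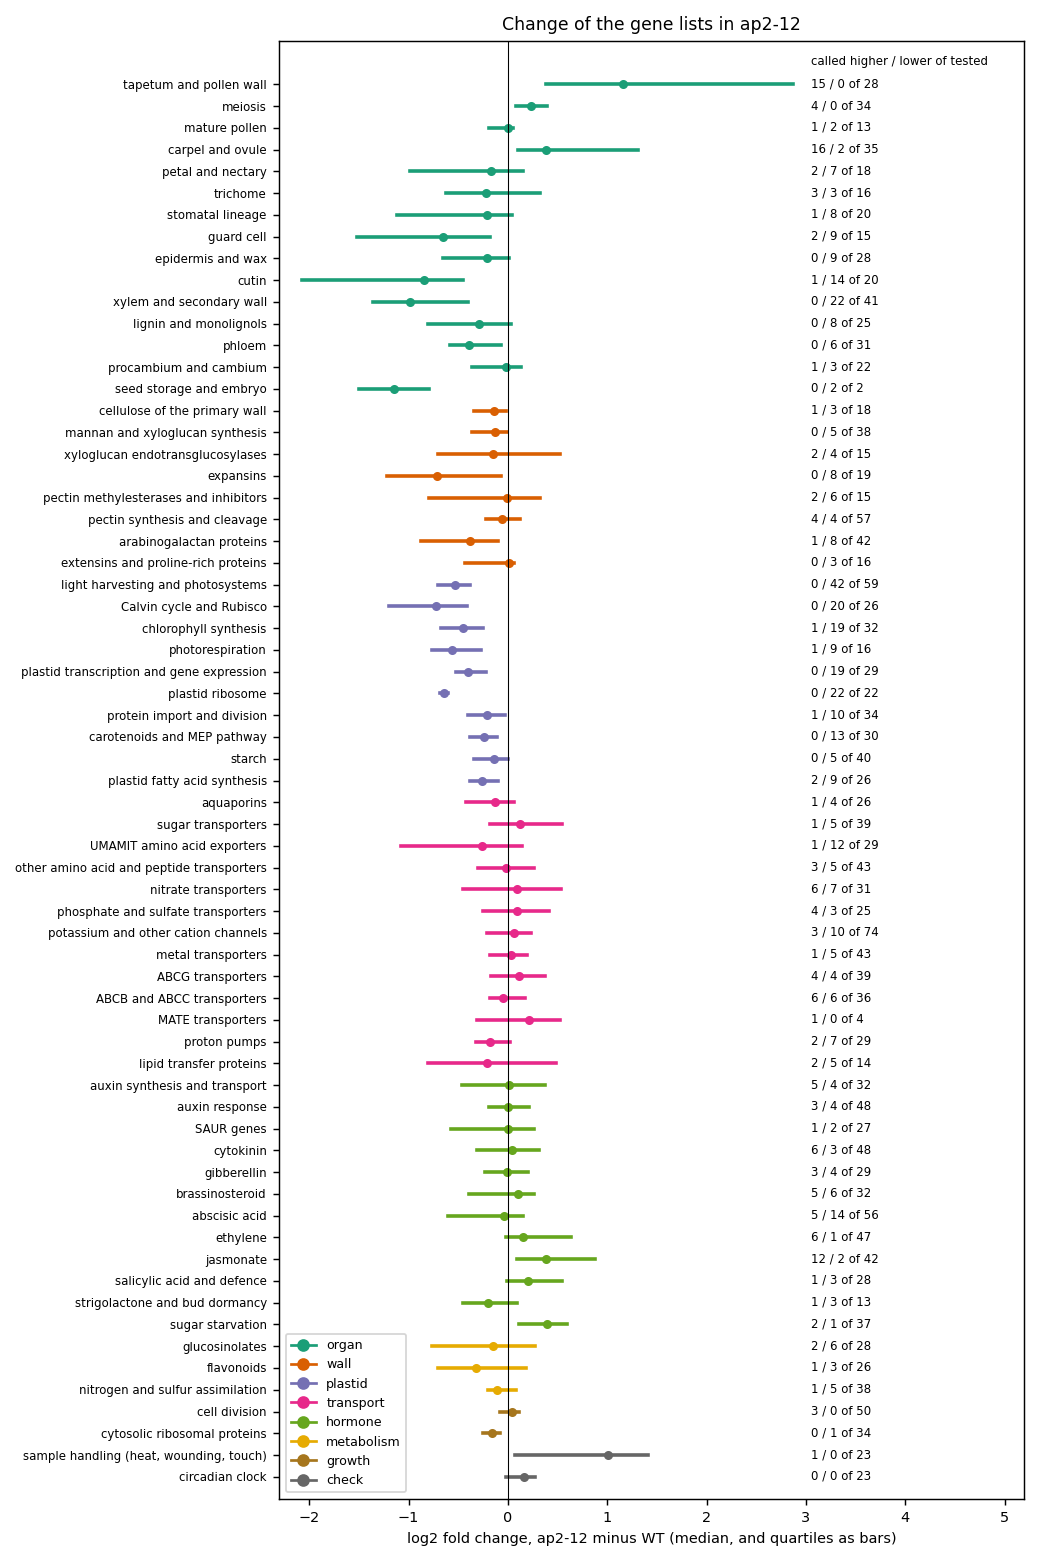
Median log2 fold change (points, ap2-12 minus WT) and quartiles (bars) of the members that passed the low-count filter in each of 65 lists, coloured by section, with the numbers called higher and lower printed at the right. The plastid lists all lie below 0, and the tapetum list, with a median of 1.16, reaches farthest above it.

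Genes of the cuticle fell in ap2-12. Cutin is the polyester that coats the epidermis, built from hydroxylated fatty acids. Of the cutin genes, 20 of 22 passed the low-count filter, 14 fell and 1 rose (median log2 fold change -0.84), against 9.59% lower and 5.65% higher among all genes tested. Summed over the list, cutin transcripts were at 1795, 1758, 1602 and 1574 CPM in ap2-12, against 3579.8, 3643, 2462 and 2971 CPM in WT, with no overlap between the groups. CYP77A6, which hydroxylates cutin acids within the chain, was at 13.6, 12.6, 12.0 and 11.3 CPM in ap2-12, against 112, 119, 65.1 and 88.2 CPM in WT (log2 fold change -2.96, SE 0.19, adjusted p = 6.48e-07). CYP86A4, a hydroxylase of the chain end, was at 3.21, 1.14, 1.93 and 2.23 CPM in ap2-12, against 88.8, 90.0, 42.2 and 53.2 CPM in WT (log2 fold change -5.02, SE 0.33, adjusted p = 9.66e-07). For both genes the ap2-12 libraries lay close together and far below every WT library. The acyltransferase gene GPAT8 fell 1.64-fold and LACS2, which activates long-chain acids, 2.203-fold. SHN1, an AP2/ERF factor known to switch on cutin and wax genes, was at 1.76, 3.62, 3.11 and 4.73 CPM in ap2-12, against 32.3, 32.4, 45.3 and 42.5 CPM in WT (log2 fold change -3.52, SE 0.23, adjusted p = 8.54e-07). MYB16, which acts with SHN1 in the cuticle of floral epidermis, fell 2.66-fold, and the related MYB106 fell 1.81-fold. BDG1, a hydrolase gene needed for cuticle structure, was the member that rose (47.3 ± 2.52 CPM in ap2-12 and 23.6 ± 0.871 CPM in WT, log2 fold change 1.00, SE 0.08, adjusted p = 7.51e-06).

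Some wax genes fell. Of the epidermis and wax genes, 28 of 29 passed the low-count filter, 9 fell and 0 rose (median log2 fold change -0.21). CER2, which acts in the elongation of very long wax acids, was at 35.5, 35.8, 30.7 and 28.0 CPM in ap2-12, against 98.9, 91.6, 74.1 and 80.2 CPM in WT (log2 fold change -1.41, SE 0.12, adjusted p = 7.25e-06). KCS6, the condensing enzyme of that elongation, fell 1.77-fold (adjusted p = 0.000582). ABCG11, an exporter of wax and cutin lipids, fell 1.55-fold and ABCG32, a transporter needed for cutin, fell 1.78-fold (log2 fold change -0.83, SE 0.07, adjusted p = 1.21e-05). Of 14 measured lipid transfer protein genes among 17, 5 fell and 2 rose (median log2 fold change -0.21). LTP2 rose (65.9, 74.3, 78.8 and 89.0 CPM in ap2-12, against 21.1, 19.8, 19.96 and 17.56 CPM in WT, log2 fold change 1.97, SE 0.11, adjusted p = 2.39e-07), with all ap2-12 libraries above every WT library, while LTP5 fell 1.81-fold. LTP3 fell 3.04-fold, but it may share reads with its near copy LTP4, so its value is uncertain.

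Many guard cell and stomatal lineage genes fell. Guard cells form the pores of the epidermis. Of the guard cell genes, 15 of 17 passed the low-count filter, 9 fell and 2 rose (median log2 fold change -0.65), and their summed level was 935 ± 152 CPM in ap2-12 and 1952 ± 306 CPM in WT. MYB60, a transcription factor of guard cells, was at 0.153, 0.469, 0.691 and 0.203 CPM in ap2-12, against 3.54, 2.16, 3.07 and 2.99 CPM in WT (log2 fold change -2.90, SE 0.40, adjusted p = 0.00034). OZS1, the anion channel that closes stomata, known as SLAC1, was at 0.536 ± 0.118 CPM in ap2-12 and 2.62 ± 0.344 CPM in WT (log2 fold change -2.27, SE 0.27, adjusted p = 0.000105). Most of the summed level came from the myrosinase genes TGG1 and TGG2, which guard cells and myrosin cells express. TGG2 was at 276, 408, 361 and 484 CPM in ap2-12, against 809, 913, 1014 and 1224 CPM in WT (log2 fold change -1.37, SE 0.18, adjusted p = 0.000245), though TGG1 and TGG2 are close copies. Among stomatal lineage genes, 20 of 20 passed the low-count filter, 8 fell and 1 rose (median log2 fold change -0.21). Their median was -0.0306 with a filter of at least 1 CPM in 4 libraries and -0.33 without ap2-12 replicate 1. Their summed level overlapped between the groups, at 1674 ± 59.7 CPM in ap2-12 and 1578 ± 86.3 CPM in WT, a difference opposite in sign to the median. MUTE, which ends the divisions of the lineage, was at 0.764, 0.670, 0.760 and 0.338 CPM in ap2-12, against 3.54, 2.70, 1.61 and 3.41 CPM in WT (log2 fold change -2.13, SE 0.31, adjusted p = 0.000561), and FMA (FAMA), which acts after it, was at 2.75, 4.96, 4.63 and 4.05 CPM in ap2-12, against 10.6, 10.8, 11.9 and 11.8 CPM in WT (log2 fold change -1.46, SE 0.16, adjusted p = 6.29e-05). No library of ap2-12 reached the lowest WT value for either gene. SPCH, which starts the lineage, was at 14.7 ± 0.712 CPM in ap2-12 and 14.5 ± 3.00 CPM in WT and was not called (log2 fold change 0.03, SE 0.17, adjusted p = 0.939). SOL1 (AT3G22760), a regulator of lineage progress, fell 1.58-fold. The trichome list had 16 of 22 genes above the low-count filter, of which 3 rose and 3 fell (median log2 fold change -0.22), with a median of -0.0412 without WT replicate 1. GL3, a bHLH factor of trichome fate, rose 4.84-fold (log2 fold change 2.28, SE 0.24, adjusted p = 5.01e-05), while TRY, an inhibitor of trichome fate, fell 1.61-fold. GIS2, a zinc finger gene of trichome formation, fell by 1.75 on the log2 scale and was not called in 3 of the 8 fits without 1 library (highest adjusted p = 0.0657).

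Many xylem genes and some phloem genes fell. Of the genes of xylem and secondary walls, 41 of 50 passed the low-count filter, 22 fell and 0 rose (median log2 fold change -0.99). Their sum was 206, 221, 210.4 and 206 CPM in ap2-12, against 321, 313, 284 and 314 CPM in WT, and the groups did not overlap. CESA4, a subunit of the secondary wall cellulose synthase, was at 2.67, 3.22, 3.32 and 4.19 CPM in ap2-12, against 10.3, 9.17, 10.02 and 9.03 CPM in WT (log2 fold change -1.52, SE 0.13, adjusted p = 9.81e-06). XCP1, a protease of dying vessel cells, was at 1.45 ± 0.4995 CPM in ap2-12 and 6.09 ± 0.843 CPM in WT (log2 fold change -2.06). XCP2, its close relative, was at 10.2 ± 2.598 CPM in ap2-12 and 24.8 ± 2.06 CPM in WT (log2 fold change -1.28). Of the lignin and monolignol genes, 25 of 31 passed the low-count filter, 8 fell and 0 rose (median log2 fold change -0.29), and without WT replicate 1 the median was -0.0957. The laccase genes IRX12 and LAC17, which polymerise lignin, fell 3.03-fold and 2.83-fold. OMT1, a methyltransferase of monolignols and flavonoids, was at 125, 83.7, 72.1 and 62.8 CPM in ap2-12, against 404, 334, 166 and 219.5 CPM in WT (log2 fold change -1.71, SE 0.29, adjusted p = 0.00181), and in both genotypes it was higher in replicates 1 and 2 than in 3 and 4. In the phloem list, 31 of 32 passed the low-count filter, 6 fell and 0 rose (median log2 fold change -0.39), and without WT replicate 1 the median was -0.24. SEOa and SEOR1, structural proteins of sieve elements, fell 1.38-fold and 1.39-fold, and HCA2, a Dof factor of vascular tissue, 1.46-fold. The procambium and cambium list was mixed. In it 22 of 23 passed the low-count filter, 3 fell and 1 rose (median log2 fold change -0.02). Here 13.6% fell, near the 9.59% among all genes tested, and 4.55% rose, against 5.65%. XIP1, a receptor kinase of vascular tissue, fell 1.83-fold (log2 fold change -0.87, SE 0.15, adjusted p = 0.00174). LOG4, a cytokinin-activating enzyme, rose 1.95-fold, and ACL5, which makes thermospermine, fell 1.21-fold. LOG4 was not called in 1 and ACL5 in 2 of the 8 fits without 1 library (highest adjusted p = 0.0564 and 0.0792).

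Genes of the reproductive organs rose in part. Of the tapetum and pollen wall genes, which act in the nurse cells of the anther, 28 of 31 passed the low-count filter, 15 rose and 0 fell (median log2 fold change 1.16). Their sum was 1136, 2351, 1876 and 2724 CPM in ap2-12, against 679, 986, 1213 and 1104 CPM in WT. The ap2-12 libraries were far apart, and ap2-12 replicate 1 lay within the range of WT. The number called higher was 20 without ap2-12 replicate 1. It was 7 without WT replicate 2, 8 without WT replicate 1 or ap2-12 replicate 4, and 9 without WT replicate 4 or ap2-12 replicate 2. CYP704B1, a hydroxylase of pollen wall synthesis, was at 43.6, 106, 78.0 and 109.8 CPM in ap2-12, against 21.8, 31.5, 40.1 and 36.1 CPM in WT (log2 fold change 1.38, SE 0.27, adjusted p = 0.00412). QRT3, a pectin-degrading enzyme that frees pollen from tetrads, was at 13.5, 39.0, 36.6 and 53.5 CPM in ap2-12, against 1.56, 1.21, 10.9 and 4.19 CPM in WT (2.97 on the log2 scale, 3.92 without WT replicate 3). ATA20, an anther gene, was at 29.3, 110.5, 90.9 and 222 CPM in ap2-12, against 9.69, 9.44, 29.0 and 14.7 CPM in WT (log2 fold change 2.84, SE 0.64, adjusted p = 0.00973). Both genotypes varied, and for each of the 3 genes the lowest ap2-12 library was replicate 1.

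The meiosis list had 34 of 34 genes above the low-count filter, of which 4 rose and 0 fell (median log2 fold change 0.24). MSH5, of crossover formation, rose 1.31-fold and AT3G10440, a shugoshin protein gene, 1.23-fold. HEI10, which sets crossover number, rose 1.38-fold. Between 1 and 6 meiosis genes were called higher when 1 library was left out, with 1 without WT replicate 1 or WT replicate 2 and 2 without ap2-12 replicate 3. AT3G10440 and HEI10 were among those lost (highest adjusted p = 0.0789 and 0.0909). Among mature pollen genes, 13 of 35 passed the low-count filter, 1 rose and 2 fell (median log2 fold change 0.0035), and 22 of the 35 were too low to test. VGD1, a pectin methylesterase gene of pollen tubes, fell 2.99-fold. The proton pump gene HA8 fell 1.61-fold and HA9 rose 2.02-fold, the rise of HA9 being lost in 5 of the 8 fits without 1 library (highest adjusted p = 0.0782).

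Many carpel and ovule genes rose. Of these, 35 of 37 passed the low-count filter, 16 rose and 2 fell (median log2 fold change 0.38), and the sum was 1831, 1669.9, 1616 and 1578 CPM in ap2-12, against 1508, 1424, 1135 and 1167 CPM in WT. SHP1, of valve margin and ovule identity, was at 25.1, 34.2, 41.7 and 46.2 CPM in ap2-12, against 5.94, 5.06, 7.75 and 5.97 CPM in WT (log2 fold change 2.57, SE 0.22, adjusted p = 7.51e-06), and SHP2, its close relative, at 30.8, 29.0, 33.8 and 35.4 CPM in ap2-12, against 6.98, 7.82, 8.92 and 7.18 CPM in WT (log2 fold change 2.06, SE 0.11, adjusted p = 1.73e-07). HEC3, which acts in the transmitting tract, was at 7.11, 8.51, 10.6 and 14.04 CPM in ap2-12, against 1.77, 2.09, 2.27 and 2.13 CPM in WT (log2 fold change 2.28, SE 0.22, adjusted p = 2.24e-05). The 3 genes were separate between the groups in every library. Petal and nectary genes had 18 of 26 genes above the low-count filter, of which 7 fell and 2 rose (median log2 fold change -0.17). This median was -0.0277 without WT replicate 2, -0.0589 with limma-voom and -0.0679 with at least 1 CPM in 4 libraries. UFO, an F-box gene that promotes petal and stamen identity, fell 32.9-fold. AP3, the petal and stamen identity gene, was at 76.0, 63.7, 53.3 and 47.3 CPM in ap2-12, against 141, 149, 98.9 and 116 CPM in WT (log2 fold change -1.07, SE 0.16, adjusted p = 0.000681), and BOP2, a boundary gene needed for nectaries, fell 2.02-fold. Of 21 seed storage and embryo genes only 2 could be tested. WRI1, an activator of oil synthesis, fell 1.35-fold, and OLEO4, an oleosin gene, was below 1 CPM throughout (0.170 ± 0.131 CPM in ap2-12 and 0.658 ± 0.204 CPM in WT) and lost its call in 7 of the 8 fits without 1 library (highest adjusted p = 0.125).

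**Figure D3:**
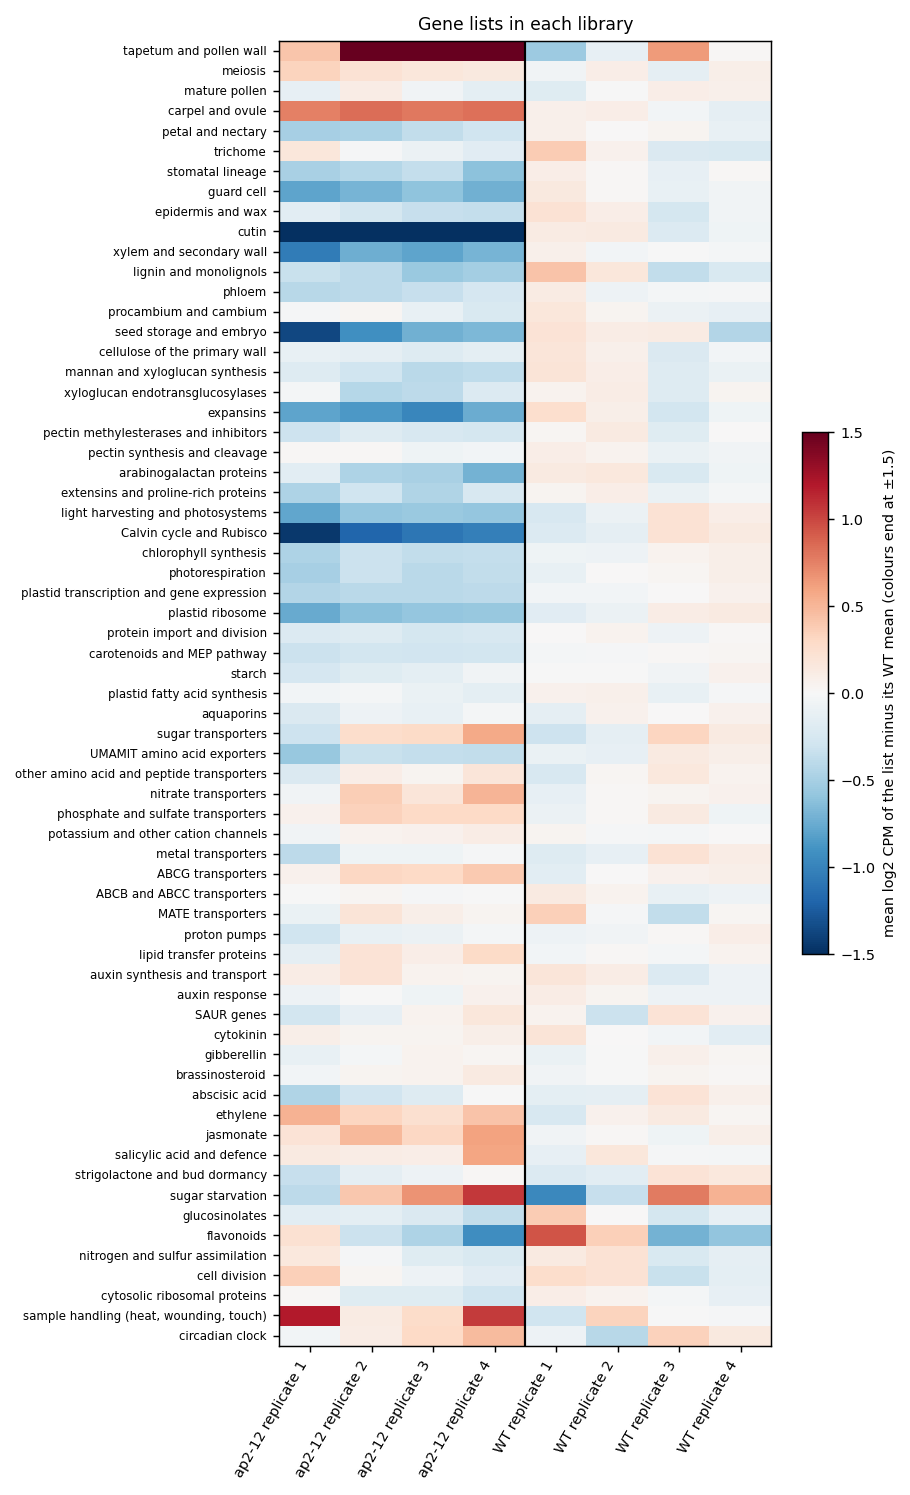
Mean log2 CPM of each of 65 lists in each library, minus the mean of that list over the 4 WT libraries, with ap2-12 replicates 1 to 4 left of the line and WT replicates 1 to 4 right of it (red higher, blue lower, colours ending at 1.5). The cutin and Calvin cycle rows are blue in all 4 ap2-12 libraries, while the sugar starvation, flavonoid and sample handling rows differ among libraries of the same genotype.

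Some primary wall genes changed. Of the expansins, which loosen walls during growth, 19 of 37 passed the low-count filter, 8 fell and 0 rose (median log2 fold change -0.72). Without the low-count filter their median was -0.25. EXP3 was at 34.3, 34.4, 37.7 and 35.0 CPM in ap2-12, against 63.4, 55.8, 64.7 and 56.5 CPM in WT (log2 fold change -0.76, SE 0.08, adjusted p = 7.27e-05) and EXPA8 at 0.448 ± 0.223 CPM in ap2-12 and 3.54 ± 0.933 CPM in WT (log2 fold change -2.95, SE 0.35, adjusted p = 0.000107). EXPA16 was at 0.153, 0.201, 0 and 0.810 CPM in ap2-12, against 1.25, 4.86, 5.56 and 6.26 CPM in WT, and its log2 fold change of -3.90 became -5.15 without ap2-12 replicate 4. EXLB1 had no count in ap2-12, so it was at least 15.0-fold lower there (0, 0, 0 and 0 CPM in ap2-12, against 0.833, 0.809, 0.293 and 1.21 CPM in WT), and with this bound the median of the list was -0.72 as before. Summed expansin levels overlapped between the groups, at 809, 719, 637 and 636 CPM in ap2-12, against 1158, 921, 642 and 709.9 CPM in WT. The xyloglucan endotransglucosylases, which cut and rejoin xyloglucan, had 15 of 33 genes above the low-count filter, of which 4 fell and 2 rose (median log2 fold change -0.15). XTH28 rose 1.64-fold (log2 fold change 0.71, SE 0.10, adjusted p = 0.000423) and XTH24 fell 3.52-fold. XTH7, at under 5 CPM in every library, overlapped between the groups (log2 fold change -2.78, adjusted p = 0.00925). Of the 4 lower calls 2 were left without WT replicate 4 or without ap2-12 replicate 2, 3 or 4.

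Some pectin methylesterase genes fell. Among pectin methylesterases and their inhibitors, 15 of 27 passed the low-count filter, 6 fell and 2 rose (median log2 fold change -0.01). Their median was -0.53 without the low-count filter and -0.13 without ap2-12 replicate 4. PME5, an esterase known from the shoot meristem, was at 243, 199.6, 226 and 188 CPM in ap2-12, against 371, 349.7, 374 and 335 CPM in WT (log2 fold change -0.74, SE 0.10, adjusted p = 0.00029), with a clear gap between the groups. PMEPCRF and PME44, of the same enzyme class, fell 1.59-fold and 1.80-fold. Summed over this list, transcripts were at 523 ± 18.6 CPM in ap2-12 and 699 ± 9.94 CPM in WT, which did not overlap. For pectin synthesis and cleavage, 57 of 65 passed the low-count filter, 4 fell and 4 rose (median log2 fold change -0.06). These shares, 7.02% lower and 7.02% higher, were near the 9.59% and 5.65% among all genes tested. GAE6, an epimerase that makes the pectin precursor UDP-galacturonate, was at 42.2 ± 2.802 CPM in ap2-12 and 88.3 ± 15.1 CPM in WT (log2 fold change -1.06, SE 0.14, adjusted p = 0.000233), and PGA4, a polygalacturonase gene, fell 3.14-fold. The rise of 4 members, QRT3 among them, varied from 1 to 5 members when 1 library was left out, with 1 left without ap2-12 replicate 2 or 3.

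Some genes of cellulose and hemicellulose synthesis changed. Of the primary wall cellulose genes, 18 of 21 passed the low-count filter, 3 fell and 1 rose (median log2 fold change -0.14). COBL1, of the COBRA-like family, rose 1.30-fold (log2 fold change 0.38, SE 0.07, adjusted p = 0.00303) and CESA2, a cellulose synthase subunit, fell 1.38-fold. CESA6, another such subunit, was at 159, 139, 125 and 136 CPM in ap2-12, against 249, 229, 154 and 173 CPM in WT (log2 fold change -0.52, SE 0.15, adjusted p = 0.0304), overlapped between the groups and was not called in 5 of the 8 fits without 1 library (highest adjusted p = 0.092). The mannan and xyloglucan synthesis list, which also holds other cellulose-synthase-like genes and the trimming enzymes XYL1 and AXY8, had 38 of 44 genes above the low-count filter, of which 5 fell and 0 rose (median log2 fold change -0.13). The share that fell, 13.2%, was near the 9.59% among all genes tested. Besides CSLA01, CSLA02 fell 1.34-fold and CSLC04, which builds the xyloglucan backbone, fell 2.402-fold. There were 3 lower calls in this list without WT replicate 1 or without ap2-12 replicate 2, 3 or 4.

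Among wall proteins, some arabinogalactan, extensin and proline-rich protein genes fell. PRP4, a proline-rich wall protein gene, was at 17.3, 33.0, 32.2 and 43.3 CPM in ap2-12, against 518, 603, 497 and 622 CPM in WT (log2 fold change -4.15, SE 0.24, adjusted p = 3.61e-07). Among extensins and proline-rich proteins, 16 of 33 passed the low-count filter, 3 fell and 0 rose (median log2 fold change 0.01), and beside PRP4 the members that fell were the receptor kinase genes PERK4 (2.35-fold lower) and PERK14 (1.43-fold lower). The list sum was 791 ± 18.7 CPM in ap2-12 and 1350.0 ± 73.5 CPM in WT. Of the arabinogalactan protein genes, 42 of 52 passed the low-count filter, 8 fell and 1 rose (median log2 fold change -0.38). FLA11, a fasciclin-like protein of secondary walls, fell 2.05-fold, XYP2, a xylogen protein gene, 2.097-fold and AGP2 3.17-fold. The lower calls numbered 14 without ap2-12 replicate 1 and 5 without WT replicate 2 or without ap2-12 replicate 3 or 4.

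Plastid genes fell as a broad group. The nuclear genes of the 10 plastid lists, carbonic anhydrase genes such as CA2 included, held 5.76 ± 0.358% of counted reads in ap2-12 and 7.81 ± 0.977% in WT. The per-library shares were 5.23, 5.85, 6.03 and 5.93% in ap2-12, against 6.75, 7.29, 8.94 and 8.24% in WT, and no ap2-12 library reached the lowest WT library. Of 314 measured genes among 317, 168 fell (53.5%) and 5 rose (1.59%). Within WT, replicates 3 and 4 were higher than replicates 1 and 2. The morning gene LHY of the circadian clock, which was not called, was at 136, 53.0, 35.7 and 20.8 CPM in ap2-12, against 224, 100.1, 22.5 and 22.8 CPM in WT, so libraries of a genotype also differed in clock genes. The part of clock phase in the plastid genes was not tested.

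Genes of light capture and carbon fixation fell. Of the light harvesting and photosystem genes, 59 of 60 passed the low-count filter, 42 fell and 0 rose (median log2 fold change -0.54), and all 59 had a negative fold change. The count was 31 to 47 when 1 library was left out. LHCB4.3, a minor antenna protein of photosystem II, was at 27.1, 27.6, 26.8 and 25.8 CPM in ap2-12, against 68.5, 78.4, 69.5 and 82.8 CPM in WT (log2 fold change -1.48, SE 0.09, adjusted p = 3.91e-07). PnsL2, a subunit of the chloroplast NDH complex, fell 5.19-fold (log2 fold change -2.38, SE 0.27, adjusted p = 9.24e-05). CAB1, CAB2 and CAB3, near-identical antenna genes whose reads may not be separable, all fell. CAB1 was at 3869 ± 606 CPM in ap2-12 and 6106 ± 1688 CPM in WT (log2 fold change -0.66, SE 0.19, adjusted p = 0.0358) and was not called in 5 of the 8 fits without 1 library (highest adjusted p = 0.0951), while CAB2 fell 2.93-fold and CAB3 1.95-fold. The Calvin cycle and Rubisco list also holds carbonic anhydrase genes such as CA2. In it 26 of 26 genes passed the low-count filter, 20 fell and 0 rose (median log2 fold change -0.72). RBCS2B was at 9.86, 17.42, 18.7 and 18.8 CPM in ap2-12, against 169, 177, 216 and 196 CPM in WT (log2 fold change -3.54, SE 0.18, adjusted p = 1.28e-07) and RBCS1B at 8.71, 10.4, 10.2 and 9.45 CPM in ap2-12, against 123, 108, 88.9 and 88.3 CPM in WT (log2 fold change -3.39, SE 0.14, adjusted p = 1.85e-08). Both are small subunit genes that resemble each other and RBCS3B closely, so their separate values are uncertain, but no library of ap2-12 came near WT in either. RBCS1A, another small subunit gene, fell 1.90-fold. CA1, a chloroplast carbonic anhydrase, was at 6.72, 8.58, 8.91 and 11.6 CPM in ap2-12, against 125, 162, 178 and 190.0 CPM in WT (log2 fold change -4.19, SE 0.18, adjusted p = 3.3e-08).

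Genes of pigment synthesis fell in part. Of the chlorophyll synthesis genes, 32 of 32 passed the low-count filter, 19 fell and 1 rose (median log2 fold change -0.46). CHLI1, a subunit of magnesium chelatase, was at 165, 164, 156 and 143 CPM in ap2-12, against 257, 269, 236 and 271 CPM in WT (log2 fold change -0.72, SE 0.08, adjusted p = 4.46e-05), and G4, the chlorophyll synthase, fell 1.69-fold. The pair of GATA factors that promote greening moved apart. GNC was at 3.13, 2.08, 2.83 and 2.50 CPM in ap2-12, against 17.3, 8.36, 12.4 and 11.7 CPM in WT (log2 fold change -2.23, SE 0.21, adjusted p = 1.68e-05), whereas CGA1 was at 1.99, 3.95, 3.25 and 2.23 CPM in ap2-12, against 0.625, 0.135, 0.439 and 0.142 CPM in WT (log2 fold change 3.15, SE 0.52, adjusted p = 0.0014). Carotenoid and MEP pathway genes had 30 of 31 genes above the low-count filter, of which 13 fell and 0 rose (median log2 fold change -0.24), or 8 lower without WT replicate 4 or without ap2-12 replicate 3 or 4. LUT2, the epsilon cyclase of lutein synthesis, fell 1.34-fold, DXR, an early enzyme of the MEP pathway, 1.31-fold and G-TMT, of tocopherol synthesis, 1.52-fold.

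Genes of the plastid gene expression machinery fell. All 22 plastid ribosome genes of the list were tested and all 22 fell, with log2 fold changes from -0.72 to -0.51. RPL9 was at 82.7, 85.8, 85.4 and 91.4 CPM in ap2-12, against 125, 139.7, 146 and 156 CPM in WT (log2 fold change -0.71, SE 0.07, adjusted p = 3.79e-05), PRPL35 fell 1.57-fold and PSRP3/1 fell 1.61-fold. Each of the 22 remained called in every fit without 1 library, except RPL4 without WT replicate 4 (adjusted p = 0.0569). The list of cytosolic ribosomal proteins had 34 of 34 genes above the low-count filter, of which 1 fell and 0 rose (median log2 fold change -0.16). The member that fell, RPL21C (1.495-fold lower), encodes a chloroplast L21 protein. Of the 34 genes, 31 had a negative fold change, and 14 were called lower with the replicate number as a block in the fit. That fit called 2998 of 18807 genes tested lower. Of the plastid transcription genes, 29 of 29 passed the low-count filter, 19 fell and 0 rose (median log2 fold change -0.40). PTAC16, a protein of the transcribing plastid chromosome, was at 92.5, 113, 120.0 and 125 CPM in ap2-12, against 217, 224, 269 and 250.3 CPM in WT (log2 fold change -1.09, SE 0.11, adjusted p = 2.94e-05), SIG2, a sigma factor, fell 1.43-fold and FSD3, a superoxide dismutase of nucleoids, 1.62-fold. For protein import and division, 34 of 35 passed the low-count filter, 10 fell and 1 rose (median log2 fold change -0.21). The chaperonin genes CPN60B and CPN60A fell 1.90-fold and 1.67-fold, and Tic62, of the inner envelope, 1.68-fold.

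Photorespiration, which salvages the product of Rubisco's oxygenase reaction, had 16 of 16 genes above the low-count filter, of which 9 fell and 1 rose (median log2 fold change -0.56). GLU1, the ferredoxin-dependent glutamate synthase, was at 106, 114, 92.4 and 102 CPM in ap2-12, against 256, 253, 244 and 284 CPM in WT (log2 fold change -1.33, SE 0.08, adjusted p = 4.89e-07), GOX1, glycolate oxidase, fell 2.13-fold and SHM1, serine transhydroxymethyltransferase, 1.88-fold. The starch list had the fewest calls of the plastid lists, with 40 of 40 genes above the low-count filter, of which 5 fell and 0 rose (median log2 fold change -0.14). The share that fell, 12.5%, was near the 9.59% among all genes tested, and 2 members were lower without ap2-12 replicate 2, 3 or 4. With the replicate number as a block in the fit, 14 of the 40 were lower, among 2998 of 18807 genes tested. APL1, a large subunit of ADP-glucose pyrophosphorylase, was at 56.6, 58.3, 59.97 and 63.1 CPM in ap2-12, against 105, 103, 113 and 105 CPM in WT (log2 fold change -0.84, SE 0.06, adjusted p = 2.68e-06), RCP1, the maltose exporter, fell 1.26-fold and PWD (AT4G24450), a glucan dikinase, 1.502-fold. PWD was not called in 4 of the 8 fits without 1 library (highest adjusted p = 0.0761), and 3 starch genes were lower without WT replicate 2 or 4. In plastid fatty acid synthesis, 26 of 26 passed the low-count filter, 9 fell and 2 rose (median log2 fold change -0.26). ACP4, the main acyl carrier protein of leaves, fell 1.53-fold, and the desaturase genes FAD6 and FAD7 fell 1.51-fold and 1.47-fold, while FTM1 was among the members that rose.

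**Figure D4:**
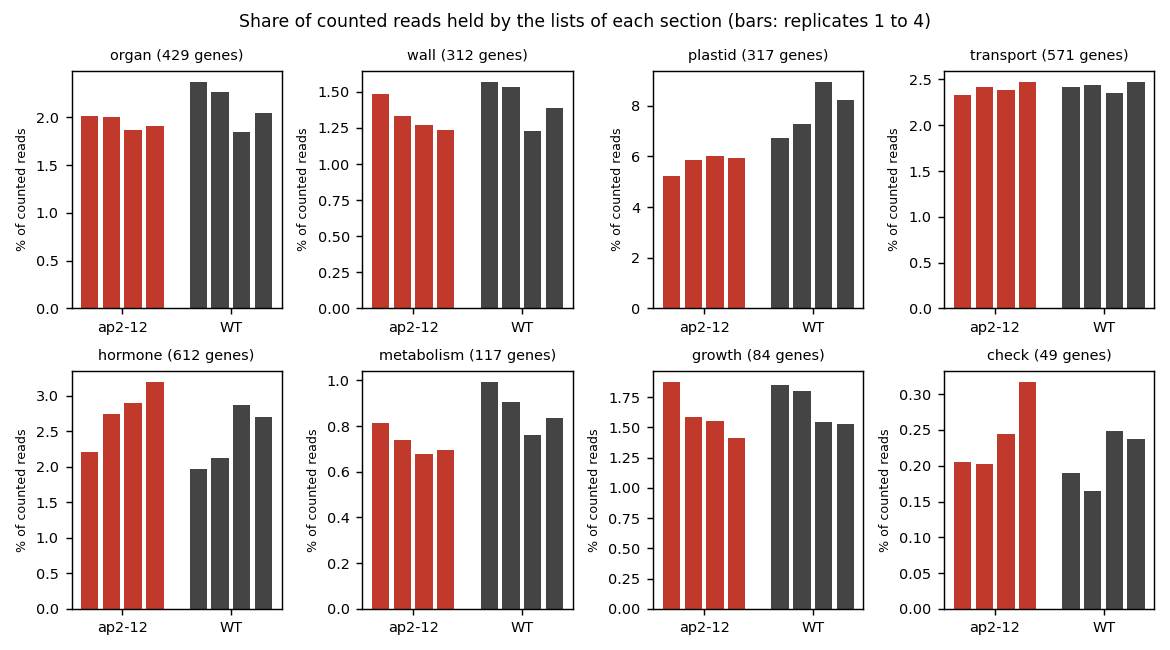
Share of counted reads (vertical, %) held by the genes of each section of lists in each library, ap2-12 replicates 1 to 4 in red and WT replicates 1 to 4 in dark grey, with axes that start at 0 and differ between panels. The plastid share of 5.23 to 6.03% in ap2-12 lies below the 6.75 to 8.94% in WT, and the other panels overlap between the genotypes.

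Transport genes changed in both directions and their summed share overlapped between the genotypes, at 2.401 ± 0.0584% of counted reads in ap2-12 and 2.42 ± 0.0520% in WT. Of 425 measured transport genes among 571, 72 fell (16.9%, against 9.59% among all genes tested) and 35 rose (8.24%, against 5.65%). The UMAMIT amino acid exporters had the most lower calls of the transport lists. In this list 29 of 44 passed the low-count filter, 12 fell and 1 rose (median log2 fold change -0.26), and the sum was 404, 410.1, 409.9 and 409 CPM in ap2-12, against 502, 478, 489 and 487 CPM in WT, a small difference that did not overlap. UMAMIT13 was at 7.18, 7.84, 8.71 and 8.24 CPM in ap2-12, against 23.1, 20.3, 27.1 and 18.9 CPM in WT (log2 fold change -1.48, SE 0.12, adjusted p = 7.25e-06), UMAMIT14, which exports amino acids from seed coat and root phloem, fell 1.96-fold and UMAMIT31 2.45-fold. The median of the list was -0.47 without ap2-12 replicate 2, -0.42 without ap2-12 replicate 4 and -0.48 without WT replicate 2. For other amino acid and peptide transporters, 43 of 48 passed the low-count filter, 5 fell and 3 rose (median log2 fold change -0.02). These shares, 11.6% lower and 6.98% higher, were near the 9.59% and 5.65% among all genes tested. AAP7, an amino acid permease, was at 3.13, 3.35, 3.94 and 4.66 CPM in ap2-12, against 17.1, 17.0, 28.9 and 25.3 CPM in WT (log2 fold change -2.55, SE 0.20, adjusted p = 4.5e-06), ProT3, a proline transporter, fell 4.10-fold and LHT1, which takes up amino acids, rose 2.69-fold. The lower calls were 3 without WT replicate 3 or 4 or without ap2-12 replicate 2 or 4.

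Sugar transporters had 39 of 53 genes above the low-count filter, of which 5 fell and 1 rose (median log2 fold change 0.12). In this list 12.8% fell, near the 9.59% among all genes tested, and 2.56% rose, against 5.65%. SUC1, a sucrose-proton symporter known from pollen, was at 50.8, 109, 116 and 159 CPM in ap2-12, against 35.8, 35.8, 46.0 and 47.3 CPM in WT (log2 fold change 1.40, SE 0.27, adjusted p = 0.00371). SWEET10, a sucrose exporter induced at flowering, was at 72.1, 68.3, 78.8 and 72.8 CPM in ap2-12, against 137, 119, 137 and 147 CPM in WT (log2 fold change -0.89, SE 0.08, adjusted p = 1.09e-05), and SWEET1, a glucose carrier, fell 1.54-fold. The ap2-12 libraries lay above WT for SUC1 and below WT for both SWEET genes. Of the aquaporins, 26 of 35 passed the low-count filter, 4 fell and 1 rose (median log2 fold change -0.13). NIP7;1, a boric acid channel of anthers, was at 10.2, 20.17, 16.1 and 27.2 CPM in ap2-12, against 4.48, 5.39, 4.83 and 6.33 CPM in WT (log2 fold change 1.80, SE 0.31, adjusted p = 0.0018), PIP2E fell 1.42-fold and TIP4;1, a channel of the vacuole membrane, 4.22-fold.

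Among nitrate transporters, 31 of 40 passed the low-count filter, 6 rose and 7 fell (median log2 fold change 0.09). NRT2.5, a high-affinity carrier of starved roots, was at 0.841, 0.871, 0.8291 and 0.810 CPM in ap2-12, against 0, 0, 0 and 0 CPM in WT, so it was at least 14.6-fold higher in ap2-12, and the median of the list stayed at 0.09 with that bound. WR3, known as NRT3.1, the partner protein of the NRT2 carriers, was at 1.68, 4.42, 3.52 and 7.09 CPM in ap2-12, against 0.521, 0.135, 0.366 and 0.284 CPM in WT (log2 fold change 3.71, SE 0.50, adjusted p = 0.000306). CLC-A, which loads nitrate into the vacuole, was at 17.3, 21.4, 18.17 and 20.19 CPM in ap2-12, against 32.9, 40.1, 47.8 and 47.6 CPM in WT (log2 fold change -1.13, SE 0.12, adjusted p = 3.94e-05). The higher calls were 3 without ap2-12 replicate 2 or 4, and the lower calls 4 without ap2-12 replicate 3. Phosphate and sulfate transporters had 25 of 38 genes above the low-count filter, of which 4 rose and 3 fell (median log2 fold change 0.09), or 2 higher without WT replicate 2 or without ap2-12 replicate 2, 3 or 4. SULTR1;2, of sulfate uptake, was at 4.48 ± 0.911 CPM in ap2-12 and 1.05 ± 0.384 CPM in WT (log2 fold change 2.07, SE 0.32, adjusted p = 0.00093), SULTR3;2 fell 1.71-fold and SPX1, an intracellular phosphate sensor, rose 2.69-fold (log2 fold change 1.43, SE 0.31, adjusted p = 0.00814).

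Ion and metal transport lists held calls in both directions. Of potassium and other cation channels, 74 of 110 passed the low-count filter, 10 fell and 3 rose (median log2 fold change 0.06). Here 13.5% fell, near the 9.59% among all genes tested, and 4.05% rose, against 5.65%. CNGC4, a cyclic nucleotide-gated channel, was at 5.81, 6.499, 6.36 and 6.14 CPM in ap2-12, against 30.5, 26.2, 22.5 and 26.5 CPM in WT (log2 fold change -2.09, SE 0.11, adjusted p = 2.23e-07), CHX20, a cation exchanger of guard cells, fell 4.40-fold and KT2/3, a potassium channel of phloem, 1.58-fold. Metal transporters had 43 of 67 genes above the low-count filter, of which 5 fell and 1 rose (median log2 fold change 0.03). The share that fell, 11.6%, was near the 9.59% among all genes tested, and 2.33% rose, against 5.65%. The ferric reductase genes FRO8 and FRO1 (AT1G01590) fell 5.35-fold and 5.27-fold, FRO8 being at 3.09 ± 0.899 CPM in ap2-12 and 16.7 ± 0.891 CPM in WT, and NRAMP6 fell 2.11-fold. Proton pumps had 29 of 31 genes above the low-count filter, of which 7 fell and 2 rose (median log2 fold change -0.18), or 4 lower without WT replicate 4 or without ap2-12 replicate 2 or 3. HA2, a main proton pump of the plasma membrane, was at 55.4, 52.4, 48.8 and 53.5 CPM in ap2-12, against 123, 114, 89.7 and 111 CPM in WT (log2 fold change -1.06, SE 0.10, adjusted p = 1.21e-05), and AVA-P1, a subunit of the vacuolar pump, fell 1.33-fold. In the ABCG list 39 of 44 passed the low-count filter, 4 rose and 4 fell (median log2 fold change 0.11), with 8 higher without ap2-12 replicate 1. The share that fell, 10.3%, was near the 9.59% among all genes tested, and 10.3% rose, against 5.65%. ABCG21 fell 2.398-fold. The ABCB and ABCC list had 36 of 44 genes above the low-count filter, of which 6 rose and 6 fell (median log2 fold change -0.05). ABCB13, of the auxin-transporting ABCB class, was at 0.382, 0.871, 0.484 and 0.405 CPM in ap2-12, against 14.5, 11.1, 6.87 and 6.11 CPM in WT (log2 fold change -4.13, SE 0.35, adjusted p = 8.31e-06), ABCC14 fell 1.49-fold and ABCC1, which moves conjugates into the vacuole, 1.38-fold. The 6 higher calls were 1 without WT replicate 4 or without ap2-12 replicate 2, 3 or 4, 2 without WT replicate 2 and 3 without WT replicate 1. Of 7 MATE genes 4 were tested and ALF5, a root efflux carrier, rose 1.43-fold (median of the 4, log2 fold change 0.21, or 0.48 without the low-count filter and 0.53 with the 8 libraries alone).

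Hormone genes changed in both directions. Of 438 measured members among 612, 50 rose (11.4%, against 5.65% among all genes tested) and 47 fell (10.7%, against 9.59%). Some jasmonate genes rose. Of that list, 42 of 51 passed the low-count filter, 12 rose and 2 fell (median log2 fold change 0.39). OPCL1, a CoA ligase of jasmonate synthesis, was at 24.6, 25.2, 28.1 and 53.3 CPM in ap2-12, against 13.5, 12.2, 12.6 and 15.3 CPM in WT (log2 fold change 1.29, SE 0.24, adjusted p = 0.0027), THI2.1, a jasmonate-responsive thionin, was at 21.9, 21.3, 21.8 and 12.7 CPM in ap2-12, against 7.81, 7.55, 8.12 and 6.68 CPM in WT (log2 fold change 1.36, SE 0.17, adjusted p = 0.000146), and ILL6, an amidohydrolase that removes jasmonoyl-isoleucine, rose 2.601-fold. The members that fell were LOX2 and CORI3, a jasmonate-induced lyase (17.57, 16.1, 13.8 and 10.3 CPM in ap2-12, against 39.9, 38.9, 32.2 and 40.1 CPM in WT, log2 fold change -1.39, SE 0.15, adjusted p = 5.84e-05). The list sum, LOX2 included, was 3861 ± 354 CPM in ap2-12 and 3786 ± 299.6 CPM in WT and overlapped. JAZ5, a jasmonate repressor that is itself wound-induced, was the called member of the sample handling list, at 18.4, 16.3, 14.4 and 22.1 CPM in ap2-12, against 9.90, 6.95, 7.24 and 8.39 CPM in WT (log2 fold change 1.14, SE 0.27, adjusted p = 0.0114). That list of heat, wounding and touch genes had 23 of 26 genes above the low-count filter, of which 1 rose and 0 fell (median log2 fold change 1.01), its median was 0.54 without ap2-12 replicate 1, and ap2-12 replicates 1 and 4 had the highest levels of all 8 libraries. The part of handling in the jasmonate genes was not tested.

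Some abscisic acid genes fell. There 56 of 68 passed the low-count filter, 14 fell and 5 rose (median log2 fold change -0.04). RAB18, a dehydrin gene induced by abscisic acid, had 2 counts over ap2-12 and 164 over WT, a ratio of ap2-12 to WT of 0.0111 (95% interval 0.00133 to 0.0408, counting error only). PYL4, a receptor, was at 105, 111, 99.2 and 95.9 CPM in ap2-12, against 37.5, 42.7, 45.9 and 46.4 CPM in WT (log2 fold change 1.25, SE 0.11, adjusted p = 7.51e-06). The phosphatase genes HAI2, ABI1 and ABI2, which such receptors inhibit, fell 2.96-fold, 1.52-fold and 2.303-fold. NCED3, the limiting enzyme of synthesis under drought, fell 2.402-fold, and COR15B, a cold-regulated chloroplast protein, 3.85-fold. The receptor gene thus lay higher and the phosphatase genes lower in every ap2-12 library than in every WT library. The higher calls of the list were 3 without WT replicate 1, 2 or 4 or without ap2-12 replicate 2, 3 or 4.

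Named genes of auxin synthesis rose, while an importer and an exporter fell. In synthesis and transport, 32 of 42 passed the low-count filter, 5 rose and 4 fell (median log2 fold change 0.01). YUC4 and TAA1, the enzymes of the main synthesis route, rose 2.32-fold and 1.70-fold, with TAA1 at 57.1, 57.2, 52.4 and 52.5 CPM in ap2-12, against 36.8, 40.5, 24.6 and 27.2 CPM in WT (log2 fold change 0.76, SE 0.15, adjusted p = 0.00349). CYP79B3, which makes indole-3-acetaldoxime for auxin and indole glucosinolates, rose 4.87-fold (log2 fold change 2.28, SE 0.45, adjusted p = 0.00426), and WAG2, a kinase of PIN exporters, 3.48-fold. The importer AUX1 fell 1.43-fold and the exporter PIN7 1.47-fold. The lower calls were 2 without WT replicate 2. In the response list 48 of 67 passed the low-count filter, 3 rose and 4 fell (median log2 fold change -0.00075), or 2 lower without WT replicate 4. These shares, 6.25% higher and 8.33% lower, were near the 5.65% and 9.59% among all genes tested. GH3.3, which conjugates auxin, was at 77.5, 118, 98.2 and 112 CPM in ap2-12, against 44.5, 52.5, 33.6 and 32.8 CPM in WT (log2 fold change 1.31, SE 0.17, adjusted p = 0.0002), DFL1, of the same family, fell 1.65-fold and ARF11, a response factor, rose 1.31-fold. Of 80 SAUR genes 27 were high enough to test, of which 1 rose (3.70%) and 2 fell (7.41%), shares also near those among all genes tested (median log2 fold change 0.00017). SAUR63 fell 4.34-fold, AT4G34800 rose 3.22-fold and AT1G19840 fell 1.72-fold. AT4G34800 was not called in 1 and AT1G19840 in 3 of the 8 fits without 1 library (highest adjusted p = 0.0546 and 0.0654).

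Cytokinin genes had 48 of 64 genes above the low-count filter, of which 6 rose and 3 fell (median log2 fold change 0.04), or 3 higher without WT replicate 2. LOG8, which activates cytokinin, was at 26.8, 31.8, 28.3 and 27.8 CPM in ap2-12, against 13.5, 12.1, 9.95 and 10.5 CPM in WT (log2 fold change 1.32, SE 0.13, adjusted p = 3.48e-05), LOG3, of the same family, was at 7.41, 6.97, 7.39 and 7.22 CPM in ap2-12, against 4.06, 3.64, 2.63 and 2.13 CPM in WT (log2 fold change 1.23, SE 0.25, adjusted p = 0.00472), and ARR11, a response regulator, fell 2.02-fold. The genotypes did not overlap for any of the 3. Gibberellin genes had 29 of 40 genes above the low-count filter, of which 3 rose and 4 fell (median log2 fold change -0.01). GASA6, a gibberellin-induced peptide gene, was at 1.30, 3.02, 4.28 and 3.51 CPM in ap2-12, against 11.6, 24.2, 38.8 and 39.1 CPM in WT (log2 fold change -3.22, SE 0.43, adjusted p = 0.000306). GID1B, a receptor, rose 1.43-fold, GA2OX4, an inactivating oxidase, rose 4.36-fold and ATGA2OX1, of the same class, fell 2.07-fold. The brassinosteroid list had 32 of 37 genes above the low-count filter, of which 5 rose and 6 fell (median log2 fold change 0.10). BEE1 and BEE2, related bHLH factors of early response, moved apart, with BEE1 at 2.37, 3.62, 2.63 and 4.12 CPM in ap2-12, against 0, 0.0674, 0.439 and 0.355 CPM in WT (log2 fold change 3.76, SE 0.77, adjusted p = 0.00526) and BEE2 at 5.88, 7.71, 7.88 and 8.17 CPM in ap2-12, against 16.7, 12.3, 29.8 and 23.8 CPM in WT (log2 fold change -1.48, SE 0.24, adjusted p = 0.00119). DOGT1, a glucosyltransferase that inactivates brassinosteroids, fell 2.64-fold and KDR, an atypical bHLH gene, 1.92-fold.

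Ethylene genes had 47 of 69 genes above the low-count filter, of which 6 rose and 1 fell (median log2 fold change 0.15). ETR2, a receptor, was at 31.4, 30.4, 31.7 and 22.8 CPM in ap2-12, against 16.4, 16.5, 13.2 and 15.1 CPM in WT (log2 fold change 0.93, SE 0.13, adjusted p = 0.000354), ERF8, a repressor of the response factor class, rose 1.498-fold and RAV1, a growth repressor, 2.76-fold (log2 fold change 1.46, SE 0.29, adjusted p = 0.00417). The salicylic acid and defence list had 28 of 38 genes above the low-count filter, of which 3 fell and 1 rose (median log2 fold change 0.21). In this list 10.7% fell, near the 9.59% among all genes tested, and 3.57% rose, against 5.65%. PBS3, which acts in salicylic acid synthesis, was at 1.53, 2.08, 1.93 and 2.50 CPM in ap2-12, against 11.9, 9.17, 8.12 and 8.10 CPM in WT (log2 fold change -2.197, SE 0.19, adjusted p = 7.51e-06), and BSMT1, a methyltransferase of salicylic acid, fell 2.65-fold. EDS1, an immune signalling gene, was at 37.2, 49.7, 45.0 and 63.2 CPM in ap2-12, against 37.8, 37.1, 28.1 and 31.4 CPM in WT (log2 fold change 0.54, SE 0.15, adjusted p = 0.0277), overlapped between the groups and was not called in 4 of the 8 fits without 1 library (highest adjusted p = 0.0703). For strigolactone and bud dormancy, 13 of 18 passed the low-count filter, 3 fell and 1 rose (median log2 fold change -0.20). AT5G57710, a Clp-domain protein gene, fell 1.37-fold. KAI2, the karrikin receptor, fell 1.32-fold and CYP711A1, of strigolactone synthesis, 1.30-fold, calls that were lost in 5 and 4 of the 8 fits without 1 library (highest adjusted p = 0.105 and 0.0778). The sugar starvation list had 37 of 39 genes above the low-count filter, of which 2 rose and 1 fell (median log2 fold change 0.39). With the replicate number as a block, 2421 of 18807 genes tested were called higher, 17 members of this list among them. Its sum ran from 3870 to 11408 CPM in ap2-12 and from 2136 to 10674 CPM in WT, and these ranges overlapped. Its median was 0.16 without ap2-12 replicate 4 and 0.70 without WT replicate 3. XYL4, a beta-xylosidase, rose 1.75-fold, BXL1, of the same class, rose 3.38-fold (not called without WT replicate 2, adjusted p = 0.0532) and ACR11, an ACT-domain protein gene, was at 67.8, 64.6, 65.4 and 62.7 CPM in ap2-12, against 123, 122, 127 and 123 CPM in WT (log2 fold change -0.93, SE 0.06, adjusted p = 1.54e-06).

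**Figure D5:**
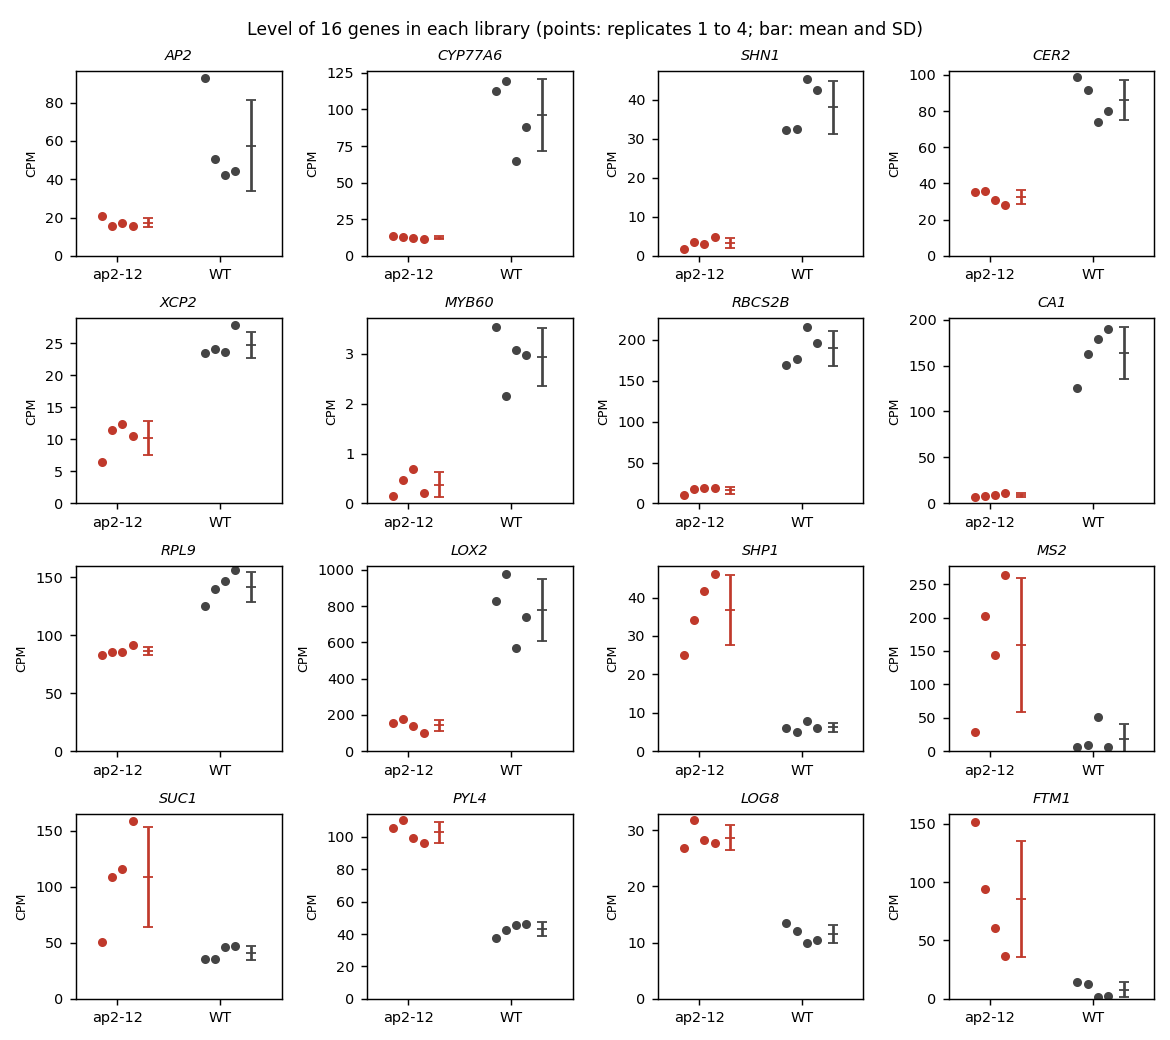
Level (CPM, axes from 0) of 16 named genes in each library, with ap2-12 in red left of WT in dark grey, points for replicates 1 to 4 and bars for the mean and SD. For each gene shown except MS2 the points of the genotypes do not overlap, which holds for 18.6% of all genes tested. FTM1, SUC1 and MS2 vary several-fold among the ap2-12 libraries.

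Metabolism outside the plastid changed in a few named steps. Glucosinolates are the mustard oil precursors of this plant family, and of their genes 28 of 42 passed the low-count filter, 6 fell and 2 rose (median log2 fold change -0.15). Without WT replicate 1 the median was 0.11. MYB28, the regulator of the aliphatic class, was at 3.51, 3.82, 3.94 and 2.57 CPM in ap2-12, against 17.5, 9.31, 9.95 and 12.0 CPM in WT (log2 fold change -1.80, SE 0.25, adjusted p = 0.000381). ESP (AT1G54040), which steers breakdown to nitriles, was at 5.88, 10.4, 11.1 and 9.66 CPM in ap2-12, against 32.2, 34.0, 33.3 and 34.2 CPM in WT (log2 fold change -1.85, SE 0.15, adjusted p = 5.59e-06), and ESM1, which opposes that, was at 35.6, 21.5, 18.1 and 12.3 CPM in ap2-12, against 213, 149, 58.6 and 70.0 CPM in WT (log2 fold change -2.49, SE 0.47, adjusted p = 0.00332). The list sum, to which TGG1 and TGG2 contribute, was 1849 ± 101 CPM in ap2-12 and 2866 ± 215 CPM in WT. Flavonoid genes had 26 of 34 genes above the low-count filter, of which 3 fell and 1 rose (median log2 fold change -0.32) and overlapped between the genotypes in their sums, at 2822, 1718, 1300.4 and 1056 CPM in ap2-12, against 3641, 2535, 1046 and 1131 CPM in WT. Their median was -0.0437 without WT replicate 1. LBD37 and LBD38, repressors of anthocyanin synthesis, fell 1.62-fold and 1.41-fold, calls that were lost in 1 and 6 of the 8 fits without 1 library (highest adjusted p = 0.0549 and 0.113). For nitrogen and sulfur assimilation, 38 of 41 passed the low-count filter, 5 fell and 1 rose (median log2 fold change -0.11). Here 13.2% fell, near the 9.59% among all genes tested, and 2.63% rose, against 5.65%. NIR1, nitrite reductase, was at 18.7, 27.3, 23.0 and 24.0 CPM in ap2-12, against 45.7, 45.7, 47.1 and 49.3 CPM in WT (log2 fold change -1.01, SE 0.12, adjusted p = 0.000144), and GSR2, a cytosolic glutamine synthetase gene, fell 1.69-fold.

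Few genes of the growth and clock lists were called in the fit without a replicate block. Of 50 cell division genes all were tested, 3 rose and none fell by edgeR's test (median log2 fold change 0.05). Here 6% rose, near the 5.65% among all genes tested. CYCD3;2, a D-type cyclin, rose 1.34-fold, AUR3, an Aurora kinase, 1.32-fold and TES, a kinesin of cytokinesis, 1.21-fold, calls that were lost in 5, 5 and 6 of the 8 fits without 1 library (highest adjusted p = 0.0938, 0.0858 and 0.105). Of the 23 circadian clock genes none was called by edgeR's quasi-likelihood test (median log2 fold change 0.16), 2 were higher and 0 lower at an unadjusted p under 0.05, and DESeq2 and limma-voom each called 1 higher. With the replicate number as a block in the edgeR fit, 6 clock genes were called higher, among 2421 of 18807 genes tested.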

How the data were processed

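The authors deposited 1 table of raw counts of reads per gene for 12 libraries, per the file headers. Per the labels' protocols, polyadenylated RNA was made into TruSeq libraries and read as 150 bp single reads. The submitters' processing notes name TopHat2, SAMtools, HTSeq and TAIR10, and versions and the strand setting were not given in the sources used here; overlapping and antisense genes and near-identical copies are therefore uncertain. Counting per gene does not separate transcript forms. Columns were matched to samples by title.

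The counts were tested with edgeR 4.0.16 in R 4.3.3 (filterByExpr, TMM scaling, quasi-likelihood test, genotype only, all 12 libraries, Benjamini-Hochberg adjustment, threshold 0.05). CPM use the scaled totals, the SE is the absolute log2 fold change over the square root of F, and intervals and limits from counts cover counting error only. What separated the replicates, which the labels call independent, is not stated, so p-values measure the spread between these libraries. On simulated counts for ap2-12 against WT (18665 genes), 43.3% of 1.5-fold, 88.1% of 2-fold and 95.5% of 4-fold changes were recovered, with 2 false among 153 calls. The data gave 2866 calls, far more than the simulated counts, so these rates need not hold for the data. Chi-square tests of counts found every pair of libraries within a group to differ.

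The gene lists, the members and the rules were chosen with earlier results of these data known. Symbols shared by unrelated genes were dropped from the lists, and names come from the RefSeq table of TAIR10.1, in which 26719 of 27416 IDs were found. The text names AP2 and, per direction, the 10 largest called changes with no overlap and at least 5 CPM in the higher group, the 8 largest CPM differences in each direction, and the 3 smallest adjusted p of each list. Other genes were picked after their values were seen. Alternatives were other scalings, DESeq2 1.42.0, limma-voom (limma 3.58.1), other filters, the 8 libraries alone, a replicate block and the omission of each library.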

Additional observations from a re-analysis of the deposited data

Results flagged for a closer look

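Of 130 sets of 4 libraries (65 lists in each genotype), 6 held a library whose mean log2 CPM over a list lay apart from the other 3 of its genotype by Dixon's 95% criterion, and chance flags about 1 set in 20. In ap2-12 replicate 1 the light harvesting and photosystem list was at 7.38, against 7.58 to 7.61 in the other ap2-12 libraries. In the same library the UMAMIT list was at 2.15 (others 2.34 to 2.38), the phosphate and sulfate transporter list at 4.19 (others 4.42 to 4.46) and the metal transporter list at 3.45 (others 3.78 to 3.83). In ap2-12 replicate 4 the salicylic acid and defence list was at 3.40, against 2.91 to 2.95 in the other ap2-12 libraries. In WT replicate 4 the seed storage and embryo list, of which 2 genes were tested, was at 1.74, against 2.29 to 2.39 in the other WT libraries.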

How the results depend on the processing

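The calls kept their direction for all 587 genes followed (named genes and called list members) under every alternative in which they were tested. No value was had for 7 of them with at least 1 CPM in 4 libraries and for 14 with the 8 libraries alone, which leaves out 21 of 9392 pairs of a gene and an alternative. Of these, 105 were not called under at least 1 alternative other than an omission and 177 under at least 1 omission. The number of genes called was 2888 with median-of-ratios scaling, 2931 with upper-quartile scaling, 3490 with DESeq2, 2842 with limma-voom, 2893 without the low-count filter, 2807 with at least 1 CPM in 4 libraries and 2247 with the 8 libraries alone. It was 2038 to 3143 without 1 library. The share called higher was 37.1%, against 42.2% with DESeq2 and 41.4% with upper-quartile scaling. The median log2 fold change of all genes tested was 0.0098 with median-of-ratios and 0.0234 with upper-quartile scaling, against 0.0015. Without the low-count filter it was 0.0250.

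Replicate numbers paired the libraries only in part. Same-numbered ap2-12 and WT libraries correlated in their deviations from the group means at 0.604, -0.0146, 0.470 and 0.389. Of the 8 libraries, 4 correlated best with another number (ap2-12 replicates 2 and 4 and WT replicates 2 and 3). Deviations were also shared between unlike numbers. The correlations of ap2-12 replicate 1 were 0.604 and 0.510 with WT replicates 1 and 2, and -0.661 and -0.432 with WT replicates 3 and 4. Those of ap2-12 replicates 3 and 4 were 0.263 to 0.534 with WT replicates 3 and 4, and -0.522 to -0.365 with WT replicates 1 and 2. The fit used for the calls has no replicate term, so this shared pattern stays in its estimate of spread. With the replicate number as a block, 5419 of 18807 genes tested were called, 2421 higher and 2998 lower. They included 2865 of the 2866 called without it. Of 130 counts of list members called in 1 direction, 64 moved by over 1.5 times, all upward. With the block 17 of 37 sugar starvation genes rose (2 without it), and 12 of 39 sugar transporters (1). So did 6 of 23 clock genes (0) and 8 of 28 salicylic acid and defence genes (1). Of 34 cytosolic ribosomal protein genes 14 fell (1), and of 40 starch genes 14 fell (5).

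List medians (log2) that moved were, without the low-count filter, guard cell -0.54, cutin -0.98, xylem -0.86, seed -0.0810, expansins -0.25, pectin methylesterases -0.53 and MATE 0.48. With at least 1 CPM they were petal and nectary -0.0679, stomatal lineage -0.0306 and seed -0.44, and with the 8 libraries alone seed -0.42, carotenoids -0.21 and MATE 0.53. With limma-voom petal and nectary was -0.0589. Over the omissions, genes called higher ran from 687 to 1354. Medians ran from -0.33 to -0.15 for stomatal lineage, 0.54 to 1.18 for sample handling, -0.27 to -0.22 for carotenoids, -0.48 to -0.26 for UMAMIT, 0.13 to 0.45 for MATE, 0.31 to 0.48 for carpel and ovule, and -0.13 to 0.0171 for pectin methylesterases. They ran from -0.42 to -0.24 for phloem, -0.20 to 0.11 for glucosinolates, -0.19 to -0.0277 for petal and nectary, -0.44 to -0.36 for plastid transcription and -0.50 to -0.38 for chlorophyll. The low-count filter changes which genes enter a median, and for the other shifts the cause was not tested. Of the 458 genes tested at under 1 CPM 9.17% were called, against 15.2% of all genes tested, and the part of depth in this was not tested.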

Other observations

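Gene families that no list was built on also differed in how many members were called. Some members also stand in lists, as the GDSL lipase gene RXF26 does in the cutin list. The family counts are therefore not separate from the list counts. The families and genes here were picked after their values were seen, from product names, and stand beside 5.65% higher and 9.59% lower among all genes tested. Of 68 galactose oxidase or kelch-repeat genes tested, 15 rose. Of 29 genes of the AP2/B3-like family, 8 rose and 1 fell, and AT5G60140 described above is one of them. Of 48 GDSL-like lipase genes 5 rose and 18 fell, and of 54 pectin lyase-like genes 4 rose and 13 fell. Of 82 basic helix-loop-helix genes 12 rose and 14 fell.

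A set of 14 genes was called and at 2 CPM or more in every library of one genotype and under 0.5 CPM in every library of the other. Among those present only in WT by this criterion were AT5G18840, a major facilitator gene, at 0.155 ± 0.215 CPM in ap2-12 and 5.40 ± 1.51 CPM in WT, and AT3G19620, a glycosyl hydrolase gene, at 0.207 ± 0.142 CPM in ap2-12 and 4.12 ± 0.865 CPM in WT (SD, n = 4 each). AT4G14301, an uncharacterized protein gene, was present only in ap2-12 by this criterion, at 3.72 ± 0.959 CPM in ap2-12 and 0.247 ± 0.179 CPM in WT.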
